A study of Homo sapiens with 6 samples.

Results

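The genes described here are 34 enzymes, transporters and regulators of the sterol and fatty acid programme driven by the sterol regulatory element-binding proteins (SREBPs). They were chosen by name, with earlier results of these data known. All 34 were found among the 56832 gene symbols of the count table. They passed the filter on low counts, as did 18061 genes in all. Poly(A)-selected RNA was sequenced in 6 libraries of HEK293T, a cell line derived from human embryonic kidney with adenovirus sequence and made to express the SV40 large T antigen. Of these libraries, 3 came from wild-type cells and 3 from the same line labelled as a knockout of SMARCA3, a helicase-like ubiquitin ligase whose gene is HLTF. All cells were grown in DMEM with fetal bovine serum and penicillin-streptomycin, and no further treatment, passage or time is stated. The series asks about ubiquitination of histone H3 by SMARCA3 and trimethylation of H3K9. The labels do not say whether the knockout cells were 1 clone or a pool, nor whether replicates were separate cultures, so p-values speak to the spread among these libraries alone, and that spread may be technical.

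SREBPs are made as membrane proteins of the endoplasmic reticulum. When sterols are scarce, the escort protein SCAP carries them to the Golgi, where proteases release the transcription factor domain. When sterols are plentiful, INSIG proteins hold SCAP back and the targets fall. The product of SREBF2 acts mostly on cholesterol synthesis and uptake, and the main product of SREBF1 mostly on fatty acid synthesis, with broad overlap between them. Serum in the medium supplies lipoprotein cholesterol, and cultured cells also make their own.

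Total counts ran from 33125811 to 41593655 per library, with each knockout library below each wild-type library. Levels are CPM, counts scaled to 1000000 per library, and library values are given in the order of the replicate numbers. In HLTF, the targeted gene, the wild-type libraries had 215, 191 and 195 CPM against 141, 139.9 and 149 CPM in the knockout. Its transcript was thus lower but present in the libraries labelled as knockout, and the 40 expressed genes nearest to it had a median log2 fold change of -0.50 beside its own -0.48. Gene counts do not show whether the remaining transcript carries a disrupting change. Of 12 markers of this line, such as SALL1 and NEFL, 11 averaged at least 1 CPM. EPCAM did not, and NEFM was at 0 to 0.121 CPM in the knockout libraries after 31.7 to 37.4 in wild-type. The summed level of the 12 was 275 to 277 CPM in wild-type and 214 to 219 in the knockout, with members on both sides. PAX2 (4.11 to 5.31 CPM in wild-type, 10.7 to 10.8 in the knockout) and SALL1 (46.7 to 49.8, then 54.4 to 59.0) were higher in every knockout library. EYA1 (12.5 to 15.3, then 3.50 to 3.92) and KRT18 (27.7 to 32.8, then 13.3 to 14.3) were lower in every one. Markers of hepatocytes, adipocytes, steroidogenic cells, leukocytes and endothelium summed to at most 1.33 CPM in any library, and the fibroblast list to 5.82 to 7.70 CPM, nearly all from COL1A1. Gene counts of bulk RNA cannot tell fewer expressing cells from less RNA per cell.

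Most steps of sterol synthesis were lower in the knockout, while the most abundant enzymes of fatty acid synthesis were not. Of the 34 genes, 21 fell, 3 rose and 10 did not pass the threshold, an adjusted p of 0.05 in edgeR's quasi-likelihood test with Benjamini-Hochberg adjustment over all tested genes. Over all 18061 genes, 31.8% were called, 17.7% lower and 14% higher. The median log2 fold change of the 34 genes was -0.36, beside 0.00 over all tested genes, whose quartiles were -0.18 and 0.18. FADS2, IDI1 and TM7SF2 fell most, to 42.2%, 44.6% and 50.8% of wild-type, and the other 18 to between 57.0% (FADS1) and 82.1% (ACAT2). The place of IDI1 was lost with the median change of its chromosomal neighbours removed, where 9 of the 34 genes had lower values. The 21 genes that fell and the 3 that rose were also those whose CPM did not overlap between the groups, which over all tested genes held for 45.6%, 24.4% in the lower and 21.2% in the higher direction. By role, 4 of 8 enzymes from acetyl-CoA to the isoprenoids fell, 9 of 11 enzymes from squalene to cholesterol, 2 of 3 transport genes, 2 of 5 regulators and 4 of 7 fatty acid genes. The rises were 1 regulator and 2 fatty acid genes. The 21 falls kept their direction and call under each of 17 other ways of processing.

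**Figure D1:**
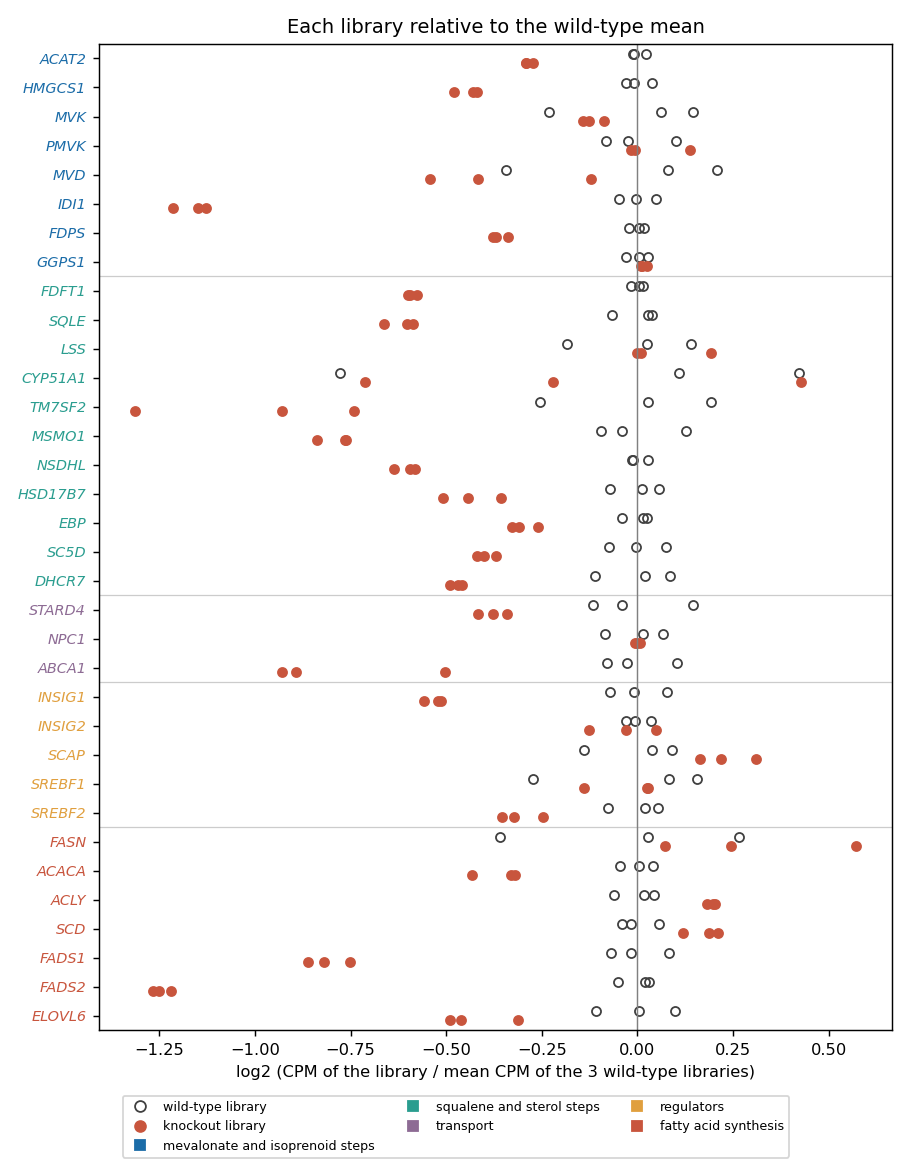
Log2 ratio of each library's CPM to the mean of the 3 wild-type libraries (x axis) for the 34 genes in pathway order (y axis, coloured by role), with open circles for wild-type and filled circles for knockout libraries. The knockout libraries lie left of every wild-type library for 21 genes and right of every one for SCAP, ACLY and SCD, and FASN, MVD and CYP51A1 spread widely within both groups.

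**Figure D2:**
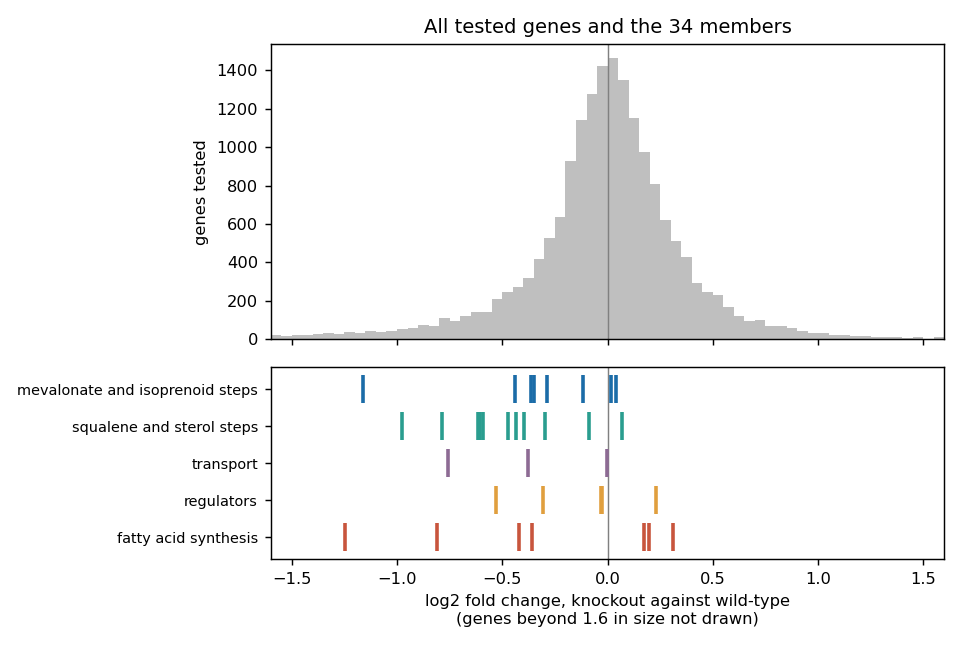
Number of tested genes by log2 fold change, knockout against wild-type (upper panel), and the position of each of the 34 genes by role (lower panel, 1 tick a gene). The sterol enzymes lie mostly left of 0, and the 7 fatty acid genes split into 4 on the left and 3 on the right.

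The sequences before the start sites were searched because SREBPs bind promoters together with the factors NF-Y and Sp1. Whether such binding bears on the changes was not tested. RefSeq promoters (GRCh38.p14) were matched for 30 of the 34 genes in 42 windows. ACAT2, FDFT1, SQLE and FASN were not matched. In the 250 bases before each start, both strands were searched for the sterol regulatory element TCACNCCAC, its shorter core CACNCCAC that lies within it, the NF-Y box CCAAT, the Sp1 box GGGCGG and the E-box CACGTG. The full element was in 1 gene, SREBF2, and in 0.883% of all 35116 windows. Its core was in 7 of the 42 windows, those of IDI1, SC5D, INSIG1, SREBF2, ABCA1, ACACA and SCD, and 4.87% of all windows, CCAAT in 24 of 42 and 32.0%, GGGCGG in 37 of 42 and 42.6%, and CACGTG in 5 of 42 and 6.34%. All windows include those of noncoding genes, and base composition was not matched. Of the 20 genes with CCAAT in a window, 14 fell, 2 rose and 4 were not called, and of the 10 without it, 4 fell, 1 rose and 5 were not called. Of the 7 genes with the core, 6 fell and SCD rose, and of the 23 without it, 12 fell, 2 rose and 9 were not called. Among all 34 genes 61.8% fell whatever their motifs, beside 17.7% lower over all tested genes. A match describes letters only, and no test was made of these splits. The genes whose sequences follow were all among those that fell. Genes with several boxes that did not fall are not shown, such as MVK with 5 CCAAT matches and MVD with 3, neither called. Below, capitals mark CACNCCAC or CCAAT on either strand, each sequence reading 5′ to 3′ on the strand of its gene. SREBF2 (chr22:41832855-41833104, plus strand) and INSIG1 (chr7:155297628-155297877, plus) show the core beside 1 NF-Y box. HMGCS1 (chr5:43313413-43313662, minus), IDI1 (chr10:1049120-1049369, minus), MSMO1 (chr4:165327419-165327668, plus) and DHCR7 (chr11:71448394-71448643, minus) show 2 to 4 NF-Y boxes without the core. FADS2 (chr11:61816154-61816403, plus), the gene with the largest fall, shows neither. For genes with several windows, the one whose first transcribed bases lie in most GENCODE transcripts was taken, so the core of IDI1, which lies in another window, is not seen here.
SREBF2: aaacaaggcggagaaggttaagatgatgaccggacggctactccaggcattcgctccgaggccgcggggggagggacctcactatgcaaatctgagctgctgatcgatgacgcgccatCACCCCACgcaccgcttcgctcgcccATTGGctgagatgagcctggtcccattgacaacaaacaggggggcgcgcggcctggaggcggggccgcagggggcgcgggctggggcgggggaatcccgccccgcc
INSIG1: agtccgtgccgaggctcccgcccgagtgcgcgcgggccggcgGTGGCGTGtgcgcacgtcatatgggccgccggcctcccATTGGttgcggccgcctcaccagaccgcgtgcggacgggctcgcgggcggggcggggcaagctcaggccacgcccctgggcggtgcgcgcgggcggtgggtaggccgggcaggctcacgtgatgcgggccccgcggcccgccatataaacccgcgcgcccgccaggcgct
HMGCS1: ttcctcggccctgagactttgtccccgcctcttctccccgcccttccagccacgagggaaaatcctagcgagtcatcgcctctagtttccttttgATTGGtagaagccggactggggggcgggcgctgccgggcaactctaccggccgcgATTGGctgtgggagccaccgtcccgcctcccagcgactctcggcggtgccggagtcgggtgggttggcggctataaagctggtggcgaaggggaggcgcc
IDI1: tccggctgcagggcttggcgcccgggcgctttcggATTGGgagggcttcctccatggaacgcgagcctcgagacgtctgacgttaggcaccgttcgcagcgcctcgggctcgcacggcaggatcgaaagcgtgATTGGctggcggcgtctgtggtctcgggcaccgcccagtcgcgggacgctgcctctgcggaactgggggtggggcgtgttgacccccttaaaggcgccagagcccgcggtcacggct
MSMO1: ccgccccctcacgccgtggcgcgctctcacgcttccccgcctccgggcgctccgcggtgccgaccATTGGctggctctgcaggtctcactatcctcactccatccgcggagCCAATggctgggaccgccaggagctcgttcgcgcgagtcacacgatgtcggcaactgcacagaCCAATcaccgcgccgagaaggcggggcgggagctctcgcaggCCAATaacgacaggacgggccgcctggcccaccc
DHCR7: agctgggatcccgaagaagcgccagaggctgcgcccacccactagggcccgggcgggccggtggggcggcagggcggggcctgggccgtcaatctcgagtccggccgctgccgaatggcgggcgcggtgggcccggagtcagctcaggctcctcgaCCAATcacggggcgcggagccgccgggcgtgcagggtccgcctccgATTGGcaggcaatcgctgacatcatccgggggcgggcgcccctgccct
FADS2: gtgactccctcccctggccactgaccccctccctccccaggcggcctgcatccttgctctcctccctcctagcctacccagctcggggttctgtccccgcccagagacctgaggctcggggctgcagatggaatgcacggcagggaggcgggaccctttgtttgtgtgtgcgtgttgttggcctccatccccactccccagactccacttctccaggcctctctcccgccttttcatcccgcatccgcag

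The first enzymes of the pathway build isoprenoid units from acetyl-CoA, and 4 of these 8 fell. ACAT2, the thiolase that joins acetyl-CoA units, went from 113 ± 1.53 to 92.7 ± 0.693 CPM (SD, n = 3 per group here and throughout) (log2 fold change -0.29, SE 0.04, adjusted p = 0.000275). Its 3 knockout values lay between 92.3 and 93.5 CPM, below the wild-type range of 112 to 115. ACAT2 lies at chr6:159760328-159779055 among genes that moved the other way, with 34 of its 40 nearest expressed neighbours higher and 1 lower. With the neighbour median removed, its log2 fold change was -0.60. Its exons overlap those of SOD2, SOD2-OT1 and TCP1 on the other strand, and whether the counting used strand is not given in the sources used here.

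HMGCS1, which adds a further acetyl-CoA, measured 206, 196 and 199 CPM in the wild-type libraries and 144, 149.8 and 149 CPM in the knockout libraries (log2 fold change -0.44, SE 0.04, adjusted p = 1.13e-05). The groups lay far apart, and HMGCS1 (chr5:43289395-43313512) had a neighbour median of -0.11. MVK and PMVK, the kinases that act in turn on mevalonate, were not called. MVK went from 24.5 ± 3.24 to 22.5 ± 0.445 CPM, with a 95% interval of the log2 fold change from -0.31 to 0.08, and PMVK from 26.5 ± 1.71 to 27.2 ± 1.66 CPM, with an interval from -0.11 to 0.19. MVD, which decarboxylates the product to isopentenyl diphosphate, measured 21.1, 28.4 and 31.0 CPM in wild-type and 24.7, 18.4 and 20.1 CPM in the knockout libraries. The lowest wild-type library lay inside the knockout range, and the log2 fold change of -0.35 (SE 0.14) did not pass (adjusted p = 0.0788). The call of MVD depended on the processing and is taken up with GC content below.

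IDI1, the isomerase that makes the second isoprenoid building block, had the lowest log2 fold change of the sterol enzymes before its chromosomal neighbours were taken into account. It measured 156, 146 and 151 CPM in the wild-type libraries and 68.1, 65.0 and 69.0 CPM in the knockout libraries (log2 fold change -1.16, SE 0.04, adjusted p = 2.27e-08). No knockout library came near the wild-type range. IDI1 sits near the end of the short arm of chromosome 10 (chr10:1039152-1049170), where all 40 of its expressed neighbours were called lower, with a median of -0.61. After removal of that median, IDI1 stood at -0.55 on the log2 scale (adjusted p = 7.19e-06), and TM7SF2 (-1.06), SQLE (-0.64), MSMO1 (-0.60) and ACAT2 (-0.60) then lay below it. FDPS, the farnesyl diphosphate synthase, had 86.6, 89.0 and 88.2 CPM in the wild-type and 69.5, 68.1 and 67.6 CPM in the knockout libraries (log2 fold change -0.36, SE 0.04, adjusted p = 8.36e-05). The 2 ranges were each narrow and well separated, and its neighbours had a median of 0.01. Reads of FDPS could be split with its processed pseudogenes, as those of HSD17B7 with HSD17B7P2. GGPS1, which lengthens farnesyl to geranylgeranyl diphosphate for protein prenylation and so leads away from sterols, did not differ beyond its spread, at 39.2 ± 0.779 and 39.6 ± 0.237 CPM (log2 fold change 0.02, 95% interval -0.09 to 0.12). A same-strand gene named TBCE in the annotation overlaps 37.3% of the exon length of GGPS1.

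From squalene on the pathway is committed to sterols, and 9 of these 11 enzymes fell. FDFT1, the squalene synthase, gave 191, 194 and 195 CPM in wild-type and 128, 127 and 129.5 CPM in knockout replicates (log2 fold change -0.59, SE 0.04, adjusted p = 8.13e-07). SQLE, the squalene epoxidase and a rate-limiting step, gave 201, 188 and 202 and then 131, 129.7 and 124 CPM (log2 fold change -0.62, SE 0.04, adjusted p = 1.98e-06). Both lie on chromosome 8, FDFT1 at chr8:11795573-11839309 and SQLE at chr8:124998497-125022283, with neighbour medians of -0.07 and 0.02. These 2 enzymes fell to nearly the same degree, and the medians of their neighbours were near 0. Those neighbours spread widely, over about chr8:406400-20300000 for FDFT1 and chr8:120100000-141200000 for SQLE. Of the 40 neighbours, 10 were called lower and 4 higher for FDFT1, and 7 lower and 5 higher for SQLE.

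LSS, which closes squalene epoxide into lanosterol, was an exception. It measured 81.9, 94.6 and 102 CPM in wild-type and 106, 92.9 and 93.5 CPM in the knockout libraries, with overlapping groups and a log2 fold change of 0.07 (95% interval -0.11 to 0.24, adjusted p = 0.551). CYP51A1, the demethylase of lanosterol, spread too widely within each group to show a change, with 2.39, 4.41 and 5.48 CPM in wild-type and 5.50, 2.50 and 3.52 CPM in knockout replicates and an interval from -0.76 to 0.58. Its coefficient of variation was 38.4% in wild-type and 39.8% in the knockout, beside 6.61% and 17.1% for ABCA1, which has fewer counts. The counts of CYP51A1, 92 to 209 per library, are low for an enzyme of this pathway, and 79.4% of its exon length is shared with a same-strand gene, AC000120.2, in the annotation used here. The sources used here do not give how the authors' counting treated such reads, and the level of CYP51A1 is uncertain.

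TM7SF2, a sterol reductase that acts on the product of CYP51A1, had 12.0, 14.6 and 16.3 CPM in wild-type and 8.56, 5.76 and 7.51 CPM in knockout libraries (log2 fold change -0.98, SE 0.15, adjusted p = 0.00048). Every knockout library was below every wild-type library, although TM7SF2 varied more between replicates than most of these genes. MSMO1, the oxidase that starts removal of the methyl groups at carbon C4, gave 86.1, 76.7 and 73.9 CPM in wild-type and 44.1, 46.5 and 46.5 CPM in knockout replicates (log2 fold change -0.79, SE 0.06, adjusted p = 4.81e-06). NSDHL, the dehydrogenase of the same complex, gave 91.1, 91.3 and 93.8 and 59.2, 61.5 and 61.0 CPM (log2 fold change -0.60, SE 0.04, adjusted p = 2.26e-06). HSD17B7, its ketoreductase, gave 17.2, 17.7 and 16.2 and 12.0, 12.5 and 13.3 CPM (log2 fold change -0.44, SE 0.07, adjusted p = 0.00096). All 3 enzymes of the demethylation complex fell without overlap between groups. Neighbour medians were -0.19 for MSMO1, -0.18 for NSDHL and -0.03 for HSD17B7.

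The last steps rearrange and reduce the ring double bonds. EBP, the isomerase, went from 88.8 ± 2.13 to 72.2 ± 1.80 CPM (log2 fold change -0.30, SE 0.04, adjusted p = 0.000461), the smallest fall of the 9. SC5D, the desaturase that follows, measured 110.5, 99.6 and 105 CPM in wild-type and 81.1, 78.4 and 79.4 CPM in the knockout libraries (log2 fold change -0.40, SE 0.05, adjusted p = 0.000115). DHCR7, the reductase that can give cholesterol itself, measured 141, 155 and 162 and 111, 109 and 110.2 CPM (log2 fold change -0.47, SE 0.05, adjusted p = 4.9e-05). The knockout values of DHCR7 lay close together, below every wild-type value. Neighbour medians of these 3 genes were close to 0, from -0.03 for EBP to 0.03 for DHCR7.

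**Figure D3:**
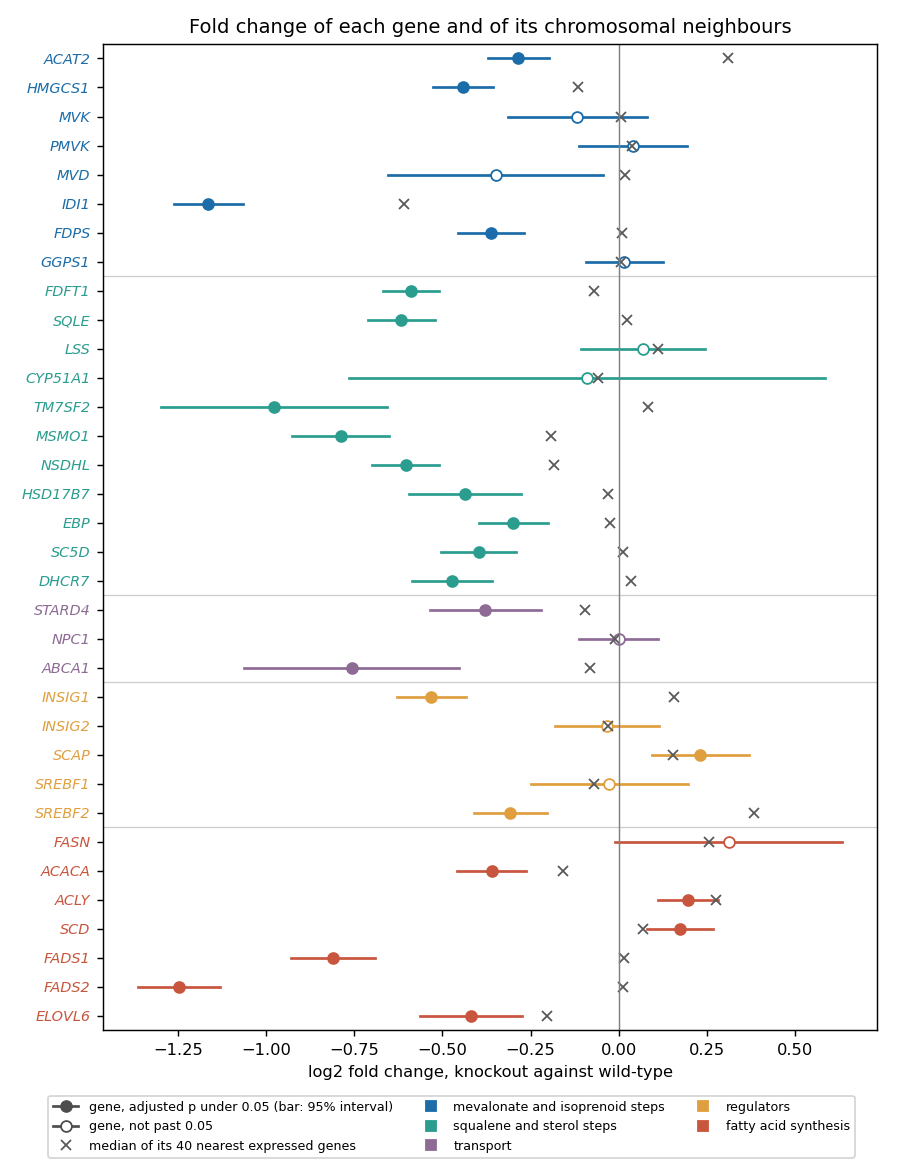
Log2 fold change of each gene, knockout against wild-type (circles, filled where the adjusted p is under 0.05, bars for the 95% interval), and the median log2 fold change of its 40 nearest expressed genes (crosses). IDI1 lies left of a cross at -0.61, ACAT2 and SREBF2 lie left of 0 with crosses right of it at 0.31 and 0.38, and the circles of SCAP, ACLY and SCD lie within about 0.1 of their crosses.

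Of the 3 transport genes, 2 fell. STARD4, a cytosolic sterol carrier and SREBP target, measured 40.1, 35.3 and 33.5 CPM in wild-type and 28.7, 27.2 and 28.0 CPM in knockout replicates (log2 fold change -0.38, SE 0.07, adjusted p = 0.00225). NPC1, which moves cholesterol out of lysosomes, measured 63.2, 65.4 and 58.9 and 62.8, 62.2 and 62.4 CPM. Its knockout values lay inside the wild-type range, with a log2 fold change of 0.00 and a 95% interval from -0.11 to 0.11. ABCA1, which exports cholesterol to lipid-poor apolipoprotein and is raised by the sterol-sensing LXR receptors, was scarce at 4.05, 3.57 and 3.70 CPM in wild-type and lower still at 1.98, 2.66 and 2.03 CPM in the knockout (log2 fold change -0.76, SE 0.14, adjusted p = 0.00186). These values rest on 67 to 168 counts a library. Both the exporter and the carrier were lower in every knockout library than in any wild-type library.

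The regulators split. INSIG1, the retention protein that is itself a strong SREBP target, measured 310.1, 292 and 279 CPM in wild-type and 199.6, 205 and 206 CPM in the knockout libraries (log2 fold change -0.53, SE 0.04, adjusted p = 7.25e-06). It fell without overlap although 18 of its 40 neighbours at the end of chromosome 7 (chr7:155297776-155310235) were higher and 3 lower. INSIG2, its paralog, measured 19.5, 18.6 and 19.0 and 18.6, 19.7 and 17.4 CPM, with a log2 fold change of -0.03 and a 95% interval from -0.18 to 0.12. The interval of INSIG2 lies wholly above that of INSIG1, -0.63 to -0.43, and the difference between the paralogs was not itself tested.

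SREBF2, the gene of the sterol-directed SREBP, measured 168, 180.1 and 184 CPM in wild-type and 149.7, 139 and 142 CPM in the knockout (log2 fold change -0.31, SE 0.05, adjusted p = 0.000571). It lies on chromosome 22 (chr22:41833079-41907308), where 35 of its 40 expressed neighbours were higher and 0 lower, with a median of 0.38. With that median removed, the log2 fold change of SREBF2 was -0.69. SREBF1, the gene of the fatty acid-directed SREBP, measured 24.8, 31.7 and 33.4 and 30.6, 27.2 and 30.5 CPM in wild-type and knockout replicates, with overlapping groups and a log2 fold change of -0.03 (95% interval -0.25 to 0.20). SCAP, the escort, was higher in the knockout, at 126, 114 and 119 CPM after 92.7, 105 and 109 CPM in wild-type (log2 fold change 0.23, SE 0.06, adjusted p = 0.0156). Its neighbours had a median of 0.15, and with that removed the value was 0.08 and no longer called (adjusted p = 0.401).

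The 7 fatty acid genes did not move in a single direction, nor did they divide along the order of the steps. The desaturases of polyunsaturated fatty acids fell most. FADS2, which introduces the first double bond in that route, measured 50.6, 53.1 and 53.5 CPM in wild-type and 22.0, 21.8 and 22.5 CPM in knockout replicates (log2 fold change -1.25, SE 0.05, adjusted p = 4.9e-08), the largest fall of the 34 genes. FADS1, which acts later in the same route, measured 94.2, 84.7 and 87.8 and 49.0, 52.8 and 50.3 CPM (log2 fold change -0.81, SE 0.05, adjusted p = 1.41e-06). The 2 genes overlap on opposite strands of chromosome 11, at chr11:61792980-61867354 and chr11:61799625-61829318, and share 490 exon bases. The genes around each had a median of 0.01, and FADS3, the third gene of this cluster, was not called (log2 fold change -0.07, adjusted p = 0.665 in edgeR).

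ELOVL6, which elongates palmitate, measured 79.1, 74.2 and 68.7 CPM in wild-type and 52.7, 53.7 and 59.6 CPM in the knockout (log2 fold change -0.42, SE 0.07, adjusted p = 0.000669). ACACA, the carboxylase that makes malonyl-CoA, measured 156, 148 and 153 and 113, 121 and 122 CPM (log2 fold change -0.36, SE 0.04, adjusted p = 0.000132). Both had neighbours that were lower as well, with medians of -0.20 and -0.16. Their values with these medians removed were -0.21 (adjusted p = 0.0325) and -0.20 (adjusted p = 0.0067), smaller but still called.

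The abundant enzymes went the other way or did not pass. ACLY, which makes cytosolic acetyl-CoA from citrate, rose from 676 ± 25.5 to 774 ± 5.98 CPM (log2 fold change 0.19, SE 0.04, adjusted p = 0.00304). SCD, the desaturase that makes oleate, rose from 1955 ± 68.0 to 2204 ± 71.6 CPM (log2 fold change 0.17, SE 0.04, adjusted p = 0.00904). FASN, the fatty acid synthase, measured 339, 443 and 523 CPM in wild-type and 647, 457 and 515 CPM in the knockout libraries. The lowest knockout library of FASN lay below the highest wild-type library, and the log2 fold change of 0.31 (SE 0.15, 95% interval -0.01 to 0.63) did not pass (adjusted p = 0.132). ACLY and FASN lie on the long arm of chromosome 17, at chr17:41866908-41930542 and chr17:82078333-82098332, where 25 and 24 of their 40 neighbours were higher. With the neighbour median removed, ACLY turned to -0.08 (adjusted p = 0.144) and SCD was 0.11 (adjusted p = 0.0869), so that 0 of the 34 genes were then called higher and 21 lower.

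Levels between genes are compared as CPM per kilobase of exon, using the summed exon length of each gene in GENCODE. SCD was highest at 364 CPM per kilobase in wild-type, then ACLY at 129.6 and INSIG1 at 80.5. FASN, NSDHL, SQLE and HMGCS1 followed at 46.4, 46.1, 45.8 and 42.6, values that lie close together. The lowest were HSD17B7 (3.56), CYP51A1 (1.14) and ABCA1 (0.332 CPM per kilobase). In the knockout, IDI1 moved from rank 11 to rank 17 of 34 and MSMO1 from 12 to 16, while FASN passed INSIG1. SREBF2 stood at 23.5 and SREBF1 at 3.73 CPM per kilobase in wild-type, and INSIG1 at 80.5 and INSIG2 at 4.82, so that in each pair the gene that fell was the more abundant one.

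**Figure D4:**
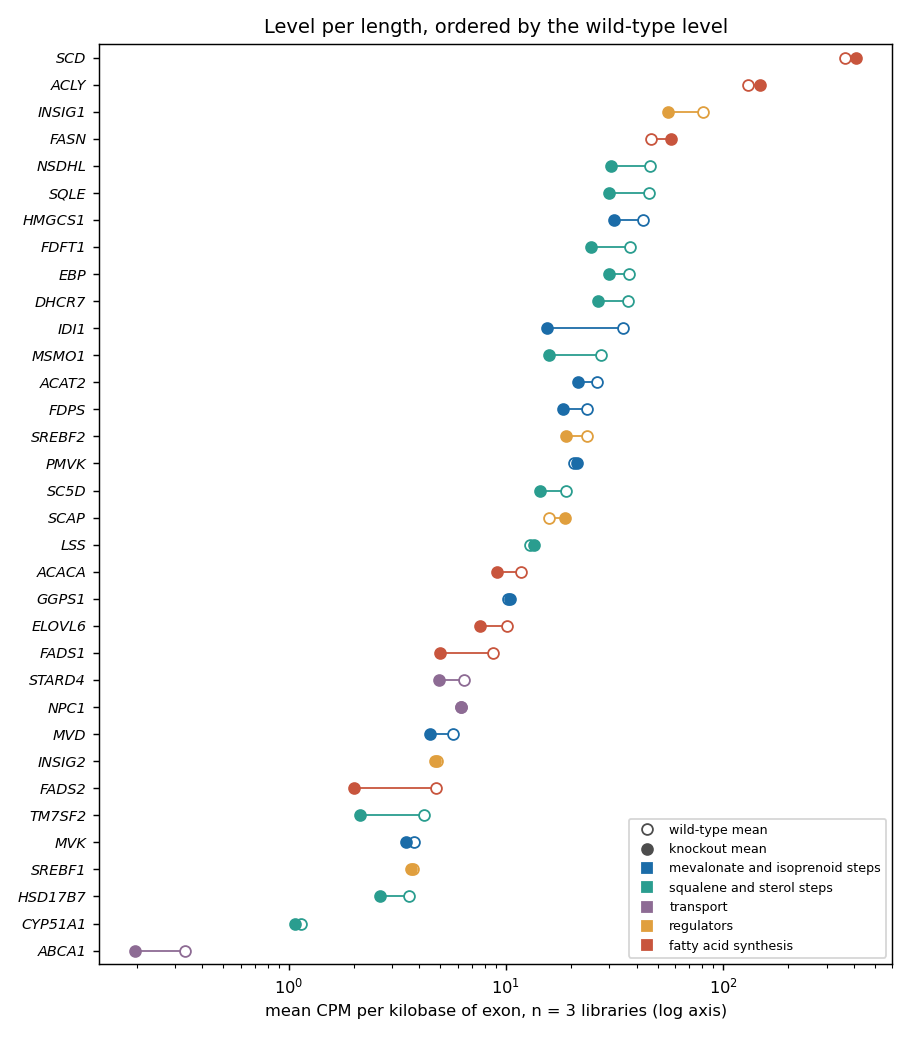
Mean CPM per kilobase of exon on a log axis for the 34 genes, ordered by the wild-type level, with open circles for wild-type and filled circles for knockout means of 3 libraries, coloured by role. SCD and ACLY stand highest in both groups and moved right, and the sterol enzymes between about 14 and 47 CPM per kilobase mostly moved left.

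Libraries of a group differed along the GC content of the genes. Across 11812 genes, the correlation of GC content with the deviation from the group mean was r = -0.78 in wild-type replicate 1 and 0.52 in knockout replicate 1, across genes, which are not independent replicates. Wild-type replicate 1 was the lowest wild-type library for 17 of the 34 genes, with a median GC content of 57.5%, and for the other 17 the median was 42.7%. For 11 genes it was the lowest of its group while knockout replicate 1 was the highest of its own. These include FASN (65.3% GC), MVD (64.1%), SREBF1 (63.5%), TM7SF2 (62.9%), SCAP (60.9%) and LSS (58.5%). Their coefficients of variation in wild-type ran from 8.18% for SCAP to 21.15% for FASN. PMVK, DHCR7, SREBF2 and FDPS had the same pattern with less spread, from 1.42% for FDPS to 6.83% for DHCR7. CYP51A1, at 40.9% GC, deviated in the same way without a high GC content. In an alternative that was chosen after seeing the data, each library's trend on GC content was removed. MVD was then called lower (-0.45, adjusted p = 2.01e-06), as was MVK (-0.16, adjusted p = 0.0234), and FASN was called higher (0.20, adjusted p = 0.000311), as was GGPS1 (0.11, adjusted p = 0.0273). This gave 23 of 34 genes lower and 5 higher, and over all genes 3501 lower and 4659 higher in place of 3205 and 2532. The median log2 fold change over all tested genes was then 0.04 in place of 0.00. Each of the 21 falls became smaller except that of TM7SF2 (-1.06 in place of -0.98). HMGCS1 was -0.34 in place of -0.44 and SC5D -0.30 in place of -0.40, so the trend also differed between the groups. MVD was also called without wild-type replicate 1 (log2 fold change -0.49) and without knockout replicate 1 (-0.47), MVK without wild-type replicate 1 (-0.21), and FASN without wild-type replicate 3 (0.47). DESeq2 also called MVD (adjusted p = 0.032), and edgeR without a filter on low counts called MVD (7.25e-05) and FASN (3.79e-09). DESeq2 did not call FASN (adjusted p = 0.377), and edgeR with robust dispersion called neither MVD (0.202) nor FASN (0.34). Among the 17 alternatives, MVD was called in 5 and FASN in 3.

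**Figure D5:**
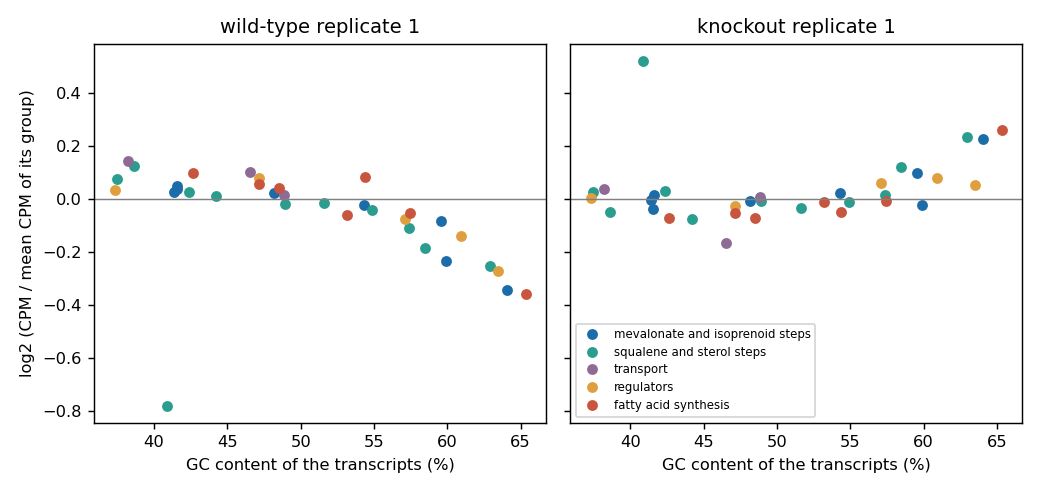
Log2 ratio of CPM in wild-type replicate 1 (left) and knockout replicate 1 (right) to the mean of its group of 3, against the GC content of the gene's transcripts in percent, 1 point a gene, coloured by role. Above about 55% GC the points fall below 0 on the left and mostly rise above 0 on the right, and the point far from the rest at 40.9% GC is CYP51A1.

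Other genes of these pathways were taken from lists written down with the design, also with earlier results of these data known. Of 10 other sterol and acetyl-CoA enzymes tested, of 12 in the table, 6 fell, 0 rose and 4 were not called, with a median log2 fold change of -0.20. The share that fell was 60.0%, beside 17.7% lower over all tested genes. ACAT1, the mitochondrial thiolase, fell from 152 ± 7.13 to 122 ± 0.898 CPM (-0.32 on the log2 scale, adjusted p = 0.000276). LBR, whose sterol reductase activity overlaps that of TM7SF2, was not called (-0.06). Of 17 genes of SREBP processing and sterol sensing, 3 fell, 3 rose and 11 were not called, shares near the 17.7% lower and 14% higher over all tested genes, with a median of -0.03. TMEM97, a sterol-regulated partner of NPC1, stood at -0.24 on the log2 scale where the genes around it had a median of -0.22, and PGRMC1, a binder of INSIG1 and SCAP, at -0.21 where that median was -0.16. ERLIN1, a lipid raft protein of the endoplasmic reticulum, rose by 0.29 and FBXW7, the ubiquitin ligase adaptor that removes nuclear SREBPs, by 0.27 on the log2 scale. The proteases MBTPS1 and MBTPS2, which cut SREBPs in the Golgi, were not called (-0.11 and -0.12, adjusted p = 0.054 and 0.133 in edgeR).

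Of 20 cholesterol handling genes tested, of 22 in the table, 4 fell, 3 rose and 13 were not called, again near the 17.7% and 14% over all tested genes, with a median of -0.03. ABCG1, which like ABCA1 exports cholesterol and is raised by LXR, fell from 5.50 ± 0.272 to 2.04 ± 0.0201 CPM (-1.43 on the log2 scale, adjusted p = 3.08e-06 in edgeR), and NCEH1, a cholesterol ester hydrolase, fell from 15.2 ± 0.0954 to 8.59 ± 0.206 CPM on chromosome 3, where its neighbours had a median of -0.52. GRAMD1B, a sterol transporter at membrane contacts, rose by 0.39 and the lipoprotein receptor VLDLR by 0.41. The LXR genes NR1H2 and NR1H3 were not called (0.19 and -0.03). Of 18 users of isoprenoids, 3 fell, 2 rose and 13 were not called, no more than those shares over all genes, with a median of -0.05. PDSS1, which makes the side chain of coenzyme Q, fell by 0.67 beside a neighbour median of -0.43 on chromosome 10, and COQ2, the next enzyme, by 0.25. FNTA, the farnesyltransferase subunit, and CHM, a Rab escort protein, rose by 0.24 and 0.22.

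Of 35 other genes of fatty acid and lipid synthesis tested, of 37 in the table, 14 fell, 4 rose and 17 were not called, with a median of -0.09. ME1, the malic enzyme that supplies NADPH to lipid synthesis, fell from 37.2 ± 1.81 to 14.4 ± 0.413 CPM (-1.37 on the log2 scale, adjusted p = 8.83e-08), further than any of the 34 genes. HSD17B12, the ketoreductase of fatty acid elongation, fell from 76.7 ± 5.06 to 56.8 ± 1.20 CPM (-0.43). ACACB, the mitochondrial counterpart of ACACA, rose by 0.25 and GPAM, the first enzyme of glycerolipid synthesis, by 0.16, the latter beside a neighbour median of 0.12.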

How the data were processed

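RNA-seq of 6 HEK293T libraries was used. The deposited values are raw counts by gene symbol with 1 column per library, neither normalized nor pooled. A stranded mRNA kit with poly(A) selection was used, per the labels' protocols. Trim Galore, STAR 2.4, Picard, HTSeq 0.9.1, DESeq2 and the hg38 build are named, per the submitters' processing notes, which give them no role or order. Columns were matched to samples by the names in the labels, and 0 rows named no gene.

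The test was that of edgeR 4.0.16 under R 4.3.3 (filterByExpr, TMM factors 0.997 to 1.005, quasi-likelihood F test, no covariate, two-sided, Benjamini-Hochberg over 18061 genes, threshold 0.05). CPM are TMM-scaled counts per 1000000 counts of the tested genes, except for the marker genes, where they refer to the unscaled total counts. A 95% interval is the log2 fold change with its SE and the test's degrees of freedom. Depth gave a floor of 3 counts at 0.0721 to 0.0906 CPM. This floor covers counting error alone, as PCR copies were not told apart by molecular identifiers. No replicate pair agreed within sampling noise (chi-square of 3.60 to 15.3 per degree of freedom), so all 6 were kept.

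Positions, exon lengths and GC content came from GENCODE on the same build, matched for 80.1% of the tested genes and all 34 described. Neighbours were the 20 positioned genes on each side with a mean of at least 2 CPM. Near a chromosome end, where fewer were available, the set was filled to 40 from the other side. For IDI1 the set reached from about base 134500 to base 14770000 of chromosome 10, so most of it lay on 1 side. Same-numbered libraries did not deviate together (r = -0.23, -0.01 and -0.05). Alternatives were RLE factors, library size only, no filter, at least 1 CPM in 3 libraries, DESeq2 1.42.0, limma-voom (limma 3.58.1), robust dispersion, the replicate block, each library left out, a threshold of 0.01, and removal of the neighbour median or, added after seeing the data, of the GC trend. All 34 genes are named. Values in every library are given for called genes that changed by 0.3 or more (log2) and for the regulators and transport genes. Per list, up to 2 called genes per direction with the smallest p are named, except an item that is not reported here, and others named were chosen after their values were seen. The members and lists were chosen with earlier results of these data known. The procedure was tested on simulated data with a common dispersion for all genes and no GC or regional trend. That test cannot show how the calls behave under such trends. The motif core CACNCCAC was added after the full element had been counted.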

Additional observations from a re-analysis of the deposited data

How the results depend on the processing

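The count of 21 genes lower was 21 to 23 over all 17 alternatives, and the same 21 genes were called lower in each of them. With a threshold of 0.01 the calls over all genes were 3477, with 2056 lower and 1421 higher, which follows from the stricter threshold. With the GC trend removed, 4659 genes were higher in place of 2532, and 5 of the 34 were higher in place of 3. With the neighbour median removed, 0 of the 34 were higher, and the cause was not tested. Leaving out 1 library at a time gave 4251 to 6156 calls over all genes, 21 to 23 of the 34 lower and 3 to 4 higher. The replicate block, whose numbers do not pair the libraries (0 of 6 correlated best with their own number), gave 4232 calls over all genes with 21 of the 34 lower and 2 higher, SCAP being lost (adjusted p = 0.0534). Of 578 single-gene values, 25 changed sign, 11 passed the threshold only in the alternative and 4 no longer passed. The sign changes other than that of ACLY were of genes that were not called. NPC1 was 0.0095 with RLE factors, 0.0089 with at least 1 CPM in 3 libraries, 0.0061 with DESeq2, 0.0002 with limma-voom, 0.0004 with the replicate block, 0.0089 with the neighbour median removed and 0.0408 with the GC trend removed. With the neighbour median removed, LSS was -0.0408, SREBF1 0.0436 and ACLY -0.0817. With the GC trend removed, PMVK was -0.0019 and INSIG2 0.068. Leaving out 1 library gave -0.0355 to 0.0413 for NPC1, -0.0043 to 0.1512 for LSS, -0.1365 to 0.064 for SREBF1, -0.4327 to 0.1834 for CYP51A1, -0.0005 to 0.0975 for PMVK and -0.0766 to 0.0111 for INSIG2. The lowest counts were those of ABCA1, 67 to 168 a library.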
